A study of Mus musculus with 4 samples.

Results

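Collagen IV, the nidogens and the heparan sulfate proteoglycans of the basement membrane were followed here through 8 genes: Col4a1, Col4a2, Col15a1, Col18a1, Nid1, Nid2, Hspg2 and Agrn. Members were all probe sets whose only gene symbol in the platform annotation is one of these names, which gave 14 of 45037 probe sets and 8 of 18193 genes. Of the 14, 12 lay above the signal floor of 17.4 in all 4 arrays, 1 of Nid1 in 1 array, and 1 of Agrn in none.

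Total RNA of tibialis anterior, the shin muscle, was hybridised to 4 Affymetrix mouse expression arrays, 1 for each group: mdx/MMP-2-/- at 3 months, mdx at 3 months, mdx/MMP-2-/- at 1 month and mdx at 1 month. The mdx/MMP-2-/- mice are called mdx/MMP-2 null below. All mice were of strain C57BL/6J per the labels, and all carried mdx, a mutation of the dystrophin gene that makes the muscle fibre membrane fragile, so no array of healthy muscle sets a baseline. The MMP-2 null mice also lacked matrix metalloproteinase 2, a secreted gelatinase that cuts basement membrane collagen. The sources used here do not give the number or sex of the mice behind an array. With 1 array per group a difference between groups holds whatever separates 2 RNA samples, and "higher" and "lower" describe these arrays.

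Basement membranes are thin sheets of matrix around every muscle fibre, capillary and Schwann cell. Collagen IV and laminin each build a network, nidogens bridge the networks, and the heparan sulfate chains of perlecan, agrin and collagen XVIII hold growth factors. In muscle, agrin from the motor nerve clusters acetylcholine receptors at the neuromuscular junction, and muscle agrin links laminin to dystroglycan, the receptor that dystrophin anchors inside the fibre.

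Signals were put on a common scale by quantile normalization, raised to the floor (the 50th percentile of all signals) and compared on the log2 scale. Each gene is represented by its brightest probe set, and 12801 genes lay above the floor in at least 1 array. A probe's signal depends on its own sequence, so levels of different genes are not compared. Deposited signals had medians of 19.7 (mdx/MMP-2 null) and 15.1 (mdx) at 3 months, and of 18.9 and 16.1 at 1 month. For Actb, the ratio of 3' to 5' probe signal, which is read as a sign of RNA integrity, stood at 2.09 (mdx/MMP-2 null) and 2.36 (mdx) at 3 months, against 1.05 and 1.19 at 1 month. For Gapdh the same ratio was 0.935 and 0.936 at 3 months, against 0.85 and 0.883 at 1 month. The Actb ratio thus differed with age far more than the Gapdh ratio, and their part in the age differences below was not tested. The 7 muscle fibre markers were among the brightest probe sets of every array, with sums of 87812 to 89909. Quantile normalization sets values at that end of the range by rank, so these sums say little about fibre content. The brightest Mmp2 probe set gave 40.9 in mdx/MMP-2 null against 805 in mdx at 3 months, and 24.7 against 985 at 1 month, as the genotype labels require.

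Sequences around the transcription start are shown for the 3 genes with the most negative age estimates by their brightest probe sets, for Col4a1, whose start faces that of Col4a2, and for Hspg2, whose estimate was nearest to 0. RefSeq (GRCm38.p6) gave start windows for 7 members, with 9 start sites in all, and Nid2 is named only. Col4a1 and Col4a2 are neighbours in head-to-head orientation: their annotated start sites face each other and lie so close that the first 22 bases of both transcripts overlap, at chr8:11312805-11312826, plus strand, shown first. The other windows end where the annotated locus begins, at chr4:156197534-156197738 (minus strand) for Agrn, chr10:77166531-77166780 (minus strand) for Col18a1 and chr4:137468553-137468750 (plus strand) for Hspg2. Capitals mark GC boxes (GGGCGG) and CCAAT boxes, searched on both strands with overlapping matches counted.
Col4a1/Col4a2 overlap: agtgcgcGGGCGGcgtctccaa
Agrn: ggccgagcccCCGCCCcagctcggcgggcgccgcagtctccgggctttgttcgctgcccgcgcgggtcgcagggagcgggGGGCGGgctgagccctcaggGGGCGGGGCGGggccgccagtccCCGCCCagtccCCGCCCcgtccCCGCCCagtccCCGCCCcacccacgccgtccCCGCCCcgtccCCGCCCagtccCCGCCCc
Col18a1: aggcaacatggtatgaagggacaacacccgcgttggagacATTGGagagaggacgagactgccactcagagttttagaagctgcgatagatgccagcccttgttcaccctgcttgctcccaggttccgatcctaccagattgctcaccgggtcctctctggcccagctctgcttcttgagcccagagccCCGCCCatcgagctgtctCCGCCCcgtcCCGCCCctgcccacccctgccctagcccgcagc
Hspg2: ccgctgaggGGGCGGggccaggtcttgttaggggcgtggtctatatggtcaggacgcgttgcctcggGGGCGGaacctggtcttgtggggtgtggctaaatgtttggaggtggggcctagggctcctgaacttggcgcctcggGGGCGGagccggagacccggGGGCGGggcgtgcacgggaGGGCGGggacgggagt

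The 205 bases before Agrn held 11 GC boxes and were 84.4% G or C, and 25.6% of 32851 RefSeq start regions held at least 1 GC box over the same bases and 0.01% as many. The 250 bases before Col18a1 held 3 GC boxes and 1 CCAAT box, where 32.7% and 33.9% of start regions held at least 1, and 8.47% held as many GC boxes. For Agrn and Col18a1 these are the upstream start sites. A second annotated start of Col18a1 had 0 GC and 0 CCAAT boxes in the 250 bases before it, and a second start of Agrn had 2 GC boxes and 0 CCAAT boxes. The 198 bases before Hspg2 held 5 GC boxes, where 24.3% of start regions held at least 1 and 0.7% as many. The 22 shared bases of Col4a1 and Col4a2 held 1 GC box, where 4.09% of start regions held 1 in the stretch of that length after the start. TATA boxes (TATAAA) were found in none of the 4 sequences. GC boxes stood both before Agrn (11) and before Hspg2 (5), whose age estimates were the furthest from 0 and the nearest to 0 by the brightest probe sets. A link between these boxes and the age differences was not tested.

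Both main collagen IV genes were lower at 3 months in both genotypes. Col4a1 and Col4a2 encode the alpha1 and alpha2 chains, which wind into the main collagen IV trimer of most basement membranes. Col4a2 had signals of 935 at 3 months against 2002 at 1 month in mdx/MMP-2 null, and of 923 against 2004 in mdx. Both 3-month arrays lay below both 1-month arrays, as in 22.2% of all genes, and within an age the genotypes differed by at most 1.01-fold. Col4a2 was thus 2.14-fold lower at 3 months in mdx/MMP-2 null and 2.17-fold lower in mdx. Col4a1 had signals of 2696 against 4332 in mdx/MMP-2 null and of 2702 against 4580.0 in mdx, so that it was 1.61-fold and 1.69-fold lower at 3 months. Its second probe set gave 398 against 756 in mdx/MMP-2 null and 328 against 786 in mdx, a larger age difference of 1.9-fold and 2.4-fold. The age difference of Col4a1 was therefore smaller than that of Col4a2 by one probe set and not by the other in mdx.

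Col15a1 and Col18a1 encode the multiplexins, collagens with interrupted helices that carry glycosaminoglycan chains and release the fragments restin and endostatin. Col18a1 had signals of 85.6 at 3 months against 166 at 1 month in mdx/MMP-2 null, and of 74.8 against 174 in mdx. It was 1.94-fold lower at 3 months in mdx/MMP-2 null and 2.33-fold lower in mdx. By its second probe set, an _s_at set that can bind related transcripts, it was 1.27-fold lower (68.4 against 87.0) and 1.44-fold lower (54.5 against 78.2). Mice without collagen XV develop a mild myopathy with fragile capillaries. Col15a1 had signals of 210 against 318 in mdx/MMP-2 null and of 226 against 348 in mdx, 1.51-fold and 1.54-fold lower at 3 months. For both genes both 3-month arrays lay below both 1-month arrays, as in 22.2% of all genes.

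**Figure D1:**
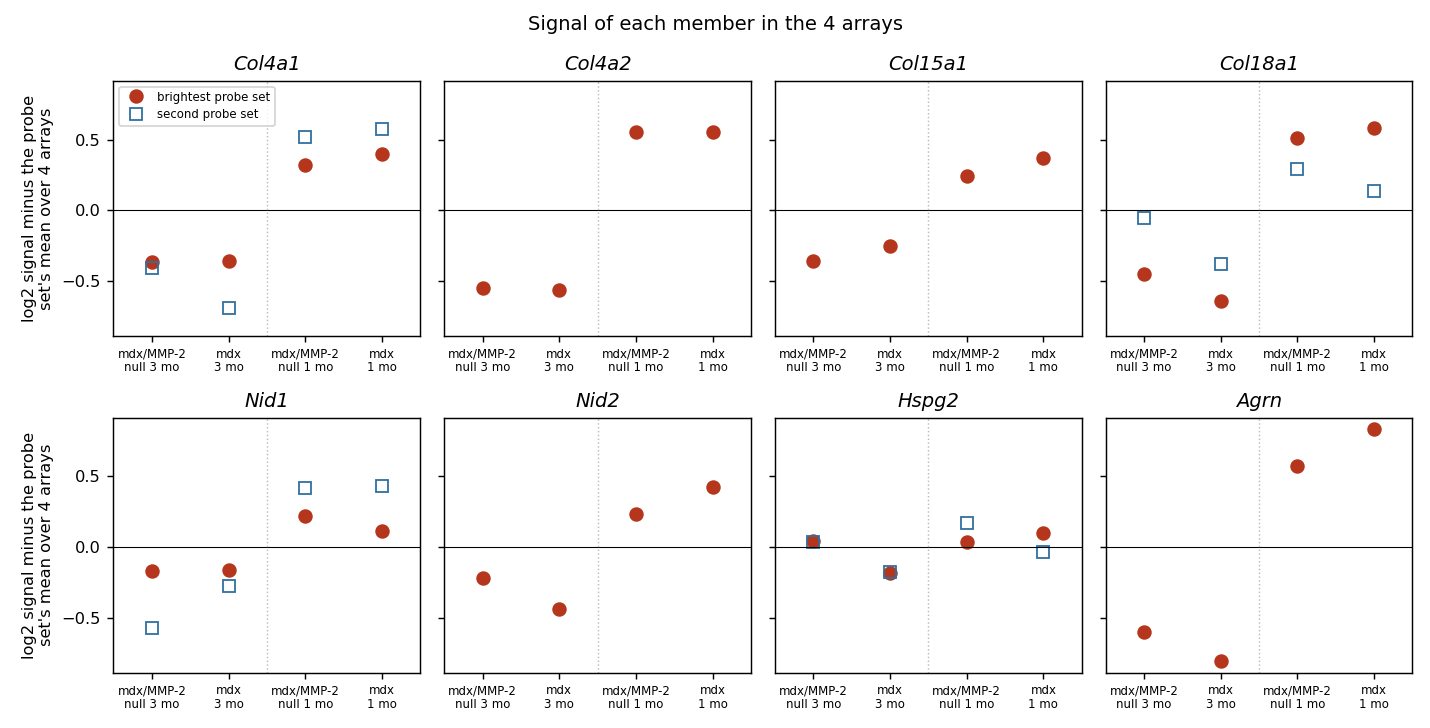
Signal of the 8 members in the 4 arrays, 1 panel per gene, for the 12 probe sets above the floor in all arrays. The vertical axis is log2 signal minus the mean of that probe set over the 4 arrays, filled circles are the brightest probe set of a gene and open squares the second, and each point is 1 array. The 2 arrays at 3 months lie below the 2 at 1 month for 7 genes, as in 22.2% of all genes. The circles of Hspg2 are within 0.28 of each other.

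Nidogens 1 and 2 are the short linkers that join laminin to collagen IV. By its brightest probe set Nid1 had signals of 2074 at 3 months against 2724 at 1 month in mdx/MMP-2 null, and of 2084 against 2532 in mdx, 1.31-fold and 1.22-fold lower. A second probe set of Nid1 gave 122 against 243 in mdx/MMP-2 null and 150 against 245 in mdx, 1.99-fold and 1.63-fold lower. The third was above the floor only in mdx at 1 month, at 17.8. Nid2 had signals of 122 against 166 in mdx/MMP-2 null and of 105 against 191 in mdx, so it was 1.37-fold and 1.82-fold lower at 3 months. For both nidogens both 3-month arrays lay below both 1-month arrays, as in 22.2% of all genes. The size of the difference for Nid1 depended on the probe set.

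The heparan sulfate proteoglycans differed from each other. By its brightest probe set Agrn had the largest age difference of the 8 genes in both genotypes, with signals of 67.7 at 3 months against 153 at 1 month in mdx/MMP-2 null and of 58.8 against 183 in mdx. It was 2.26-fold lower at 3 months in mdx/MMP-2 null and 3.11-fold lower in mdx, where 0.19% of all genes had a more negative difference. Its other probe set did not exceed 1.41 in any array and gives no fold. With the mean of both, Agrn had -0.59 in mdx/MMP-2 null muscle and -0.82 in mdx muscle. On that rule Col4a2 had -1.1 and -1.12 and Col4a1 -0.8 and -1.01. The other set of Agrn enters at the floor in every array, so the mean shrinks its difference by construction. It therefore cannot rank Agrn against the other genes. Hspg2, which encodes perlecan, the large proteoglycan of vascular and muscle basement membranes, had signals of 540.1 against 537 in mdx/MMP-2 null and of 463 against 562 in mdx. Perlecan was thus level between the ages in mdx/MMP-2 null (log2 difference 0.01) and 1.22-fold lower at 3 months in mdx. With the deposited signals left unscaled the mdx/MMP-2 null difference was 0.36, and by the second Hspg2 probe set -0.14, so its sign was not settled.

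Of the 8 genes, 2 (Col4a2, Agrn) were at least 2-fold lower at 3 months in mdx/MMP-2 null and 3 (Col4a2, Col18a1, Agrn) in mdx, against 1.22% and 1.55% of all genes, and the 2 were so in both genotypes, against 0.336%. At 1.5-fold, 5 were lower in mdx/MMP-2 null muscle and 6 in mdx muscle, against 6.7% and 7.27% of all genes, and the same 5 in both genotypes, against 1.89%. None was 1.5-fold higher, against 7.41% of all genes in mdx/MMP-2 null muscle and 5.97% in mdx muscle. By any amount, 7 were lower in mdx/MMP-2 null muscle and 8 in mdx muscle, against 45.7% and 47.7%. In 7 of 8 genes both 3-month arrays lay below both 1-month arrays, as in 22.2% of all genes and in 26.1% of the 7749 genes with a signal at or above the 75th percentile. The 8 genes had median log2 differences of -0.64 (mdx/MMP-2 null) and -0.81 (mdx), where that of all genes was 0.0 in both. These age differences rest on different arrays in each genotype. Across all genes, which are not independent replicates, they had r = 0.35.

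Scaling shifted the median of all genes in mdx/MMP-2 null, by 0.19 with median scaling and by 0.26 with no scaling. Counted without regard to that shift, 1 gene with median scaling and 0 with no scaling were 2-fold lower there. Relative to it, Agrn was lower by log2 values of -1.19 and -1.2, Col18a1 by -0.95 in both cases and Col4a2 by -0.93 and -0.94.

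**Figure D2:**
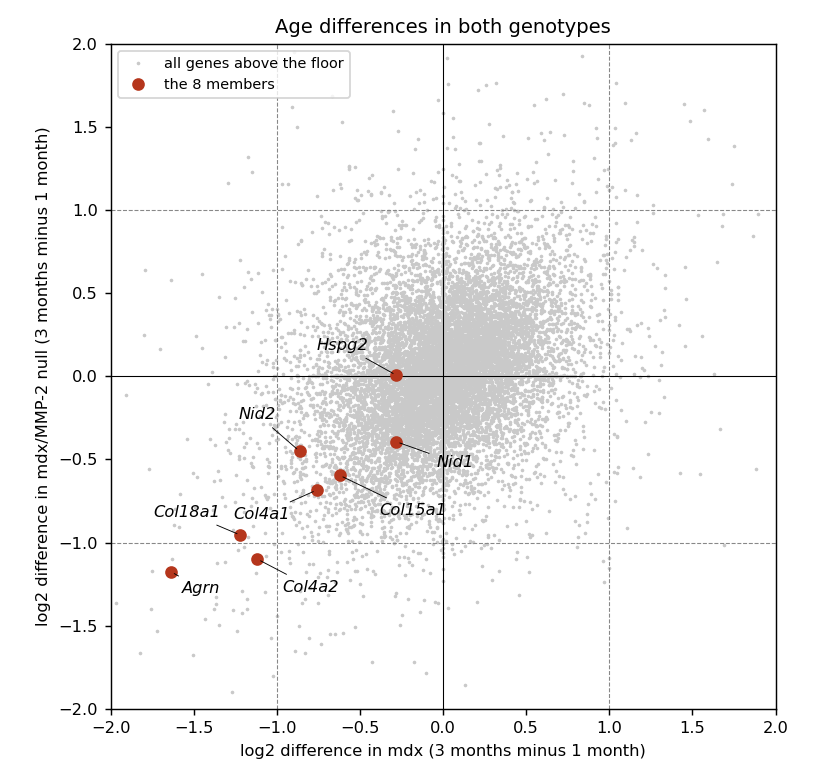
Age differences (log2, 3 months minus 1 month) in mdx/MMP-2 null on the vertical axis against those in mdx on the horizontal axis. Grey points are genes above the floor, red points are the 8 members, broken lines mark 2-fold, and 29 genes beyond 2 log2 units on either axis are not drawn. Agrn, Col4a2 and Col18a1 lie furthest towards the lower left and Hspg2 on the horizontal zero line.

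An additive model of genotype and age, fitted to all 12801 genes in limma with 1 residual degree of freedom, pooled both genotypes. Its age estimates, as log2 ± SE, were -1.41 ± 0.19 for Agrn, -1.11 ± 0.15 for Col4a2, -1.09 ± 0.16 for Col18a1, -0.72 ± 0.15 for Col4a1, -0.66 ± 0.18 for Nid2, -0.61 ± 0.15 for Col15a1, -0.34 ± 0.15 for Nid1 and -0.14 ± 0.16 for Hspg2. No member passed the adjusted threshold of 0.05, with limma's Benjamini-Hochberg p between 0.288 (Agrn, Col4a2, Col18a1 and Col4a1) and 0.736 (Hspg2), and 0 of all genes did. At an unadjusted p under 0.05, 6 members were lower (all but Nid1 and Hspg2), against 7.05% of all genes, and 0 were higher, against 6.66%. With a variance prior that follows signal, Agrn, Col4a1 and Col4a2 passed, with limma adjusted p of 0.0443, 0.0373 and 0.0074, among 130 genes.

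Neighbours in the order of these age estimates differed by less than an SE from Col4a2 to Col18a1, from Col4a1 to Nid2 and from Nid2 to Col15a1. The gaps from Agrn to Col4a2, from Col18a1 to Col4a1, from Col15a1 to Nid1 and from Nid1 to Hspg2 were larger than the SE of either estimate. The SE of a gap itself was not computed, so these gaps do not settle the order.

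Between genotypes the 8 genes differed by less. At 3 months 5 were higher in mdx/MMP-2 null and 3 lower, against 47.6% and 48.1% of all genes, and at 1 month 1 was higher and 7 lower, against 46.8% and 48.3%. These splits depended on the processing: with no scaling 8 were higher and 0 lower at 3 months, and 4 higher and 4 lower at 1 month, while with the mean of all probe sets 6 were higher and 2 lower at 3 months, and 3 higher and 5 lower at 1 month. With cyclic loess scaling 7 were higher and 1 lower at 3 months, and with median scaling 0 were higher and 8 lower at 1 month. At 3 months log2 differences (mdx/MMP-2 null minus mdx) were 0.22 for Hspg2 and Nid2, 0.2 for Agrn, 0.19 for Col18a1, 0.02 for Col4a2, 0.0 for Col4a1, -0.01 for Nid1 and -0.1 for Col15a1. At 1 month they were 0.11 for Nid1, 0.0 for Col4a2, -0.07 for Hspg2 and Col18a1, -0.08 for Col4a1, -0.13 for Col15a1, -0.2 for Nid2 and -0.26 for Agrn. These values are those of the brightest probe sets. At 3 months the second probe sets gave 0.28 for Col4a1, 0.33 for Col18a1, 0.21 for Hspg2 and -0.3 for Nid1. No member reached 1.5-fold in either direction at either age. Of all genes 6.12% were 1.5-fold higher and 3.33% lower at 3 months, and 3.52% and 3.56% at 1 month. None passed the additive model's genotype term in limma, with adjusted p from 0.985 to 0.999, and 0 members had an unadjusted p under 0.05, against 2.52% of all genes higher and 1.85% lower. Of all genes 0 passed after adjustment and 560 had an unadjusted p under 0.05. Even Mmp2, the deleted gene, did not pass, with a genotype estimate of -4.81 on the log2 scale. These values set no limit on a difference that 1 array per group would miss.

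Agrn and Nid2 had the largest shifts between the ages in the genotype difference by their brightest probe sets. The signal of Agrn was 67.7 in mdx/MMP-2 null against 58.8 in mdx at 3 months, and of 153 against 183 at 1 month. Nid2 followed the same order, at 122 against 105 at 3 months and 166 against 191 at 1 month. The genotype difference was thus greater at 3 months than at 1 month by 0.46 for Agrn and 0.41 for Nid2 on the log2 scale, a contrast that has no test with 1 array per group. With the mean of all probe sets it was 0.23 for Agrn, shrunk by construction through its set at the floor, and 0.41 for Nid2. With the deposited signals left unscaled, the median genotype difference of all genes at 3 months was 0.41 and that of the 8 members 0.55, so members lay 0.14 above it, near the 0.11 after scaling. Signs also depended on the probe set: at 1 month the second probe set of Hspg2 had a genotype difference of 0.2 and that of Col18a1 0.15, opposite to the brightest ones.

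**Figure D3:**
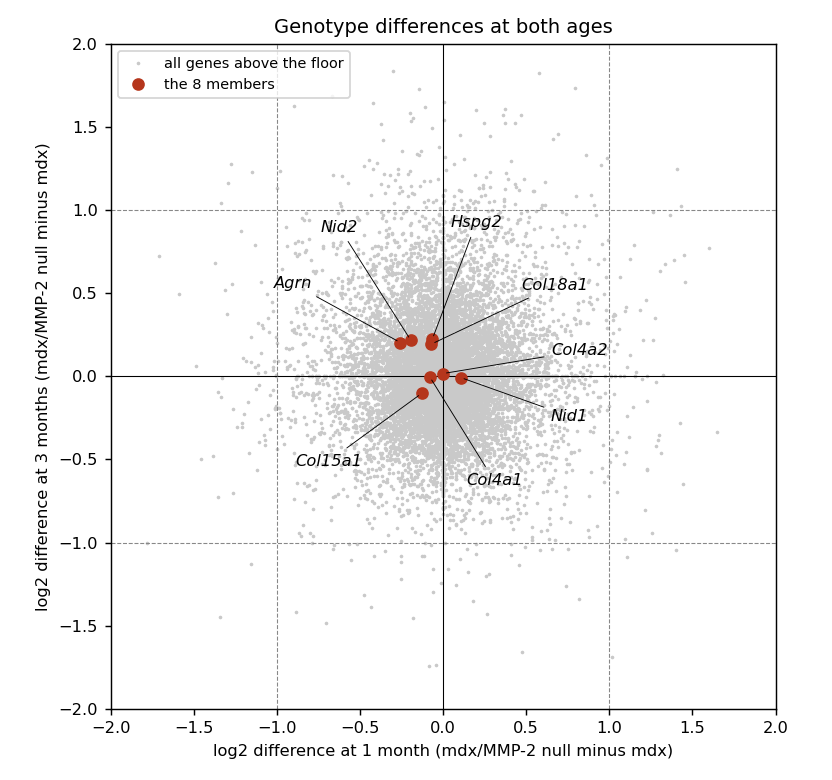
Genotype differences (log2, mdx/MMP-2 null minus mdx) at 3 months on the vertical axis against those at 1 month on the horizontal axis. Grey points are genes above the floor, red points are the 8 members, broken lines mark 2-fold, and 16 genes beyond 2 log2 units, Mmp2 among them, are not drawn. By their brightest probe sets all 8 members lie between -0.26 and 0.22 on both axes.

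Marker genes of several cell types moved with age in the same direction as the members. Of all genes 45.7% were lower at 3 months in mdx/MMP-2 null muscle and 47.7% in mdx muscle. In bulk muscle, fewer cells of a type and less RNA per cell cannot be told apart. Of 12 endothelial markers, 11 were lower at 3 months in mdx/MMP-2 null muscle and 10 in mdx muscle, with summed signals of 2099 and 2283 at 3 months against 3220.3 and 2957 at 1 month. Pecam1, an adhesion molecule of endothelial junctions, was lower by log2 differences of -1.4 in mdx/MMP-2 null muscle and -1.18 in mdx muscle, while the VEGF receptor Flt1 was higher by 0.45 and 0.51, with 1 other probe set of opposite sign in mdx. By their brightest probe sets all 4 measured Schwann cell and nerve markers were lower in both genotypes. Their sums were 1243 and 1075 at 3 months against 2207 and 1675 at 1 month. Other probe sets had the opposite sign: 2 of Mbp in mdx, and 1 each of Mbp, Sox10 and S100b in mdx/MMP-2 null. Of 6 markers of satellite cells and regenerating fibres, 5 and 6 were lower, with sums of 1876 and 1646 against 3325 and 4157. Fibroblast markers were lower in 6 of 7 cases in both genotypes, with sums of 23414 and 22131 against 26928 and 27506. Pericyte and smooth muscle markers were lower in 7 of 8, with sums of 11054 and 11072 against 12619 and 12458. Sums weigh the brightest genes most. By median log2 age difference (mdx/MMP-2 null, then mdx), endothelial markers had -0.71 and -0.56 and Schwann cell markers -0.48 and -0.51. Satellite cell and regenerating fibre markers had -0.61 and -1.07, fibroblast markers -0.27 and -0.84, and pericyte markers -0.13 and -0.15. Endothelial markers in mdx/MMP-2 null, and satellite cell and fibroblast markers in mdx, were more negative than the members (-0.64 and -0.81). The part of these cell types in the members' age differences was not tested.

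Markers of inflammatory cells followed the members' direction with age in mdx and not in mdx/MMP-2 null. Of 8 macrophage and monocyte markers, 6 were lower at 3 months in mdx, while 8 were higher in mdx/MMP-2 null. There 1 other probe set each of Csf1r and Ccr2 had the opposite sign. Of 5 neutrophil markers, 5 were lower in mdx, while 4 were higher and 0 lower in mdx/MMP-2 null. Each of 8 markers of macrophages and monocytes had more signal in mdx/MMP-2 null than in mdx at 3 months, with sums of 7629 against 4893, and 3 of 8 at 1 month, with sums of 6615 against 6936. The sum of 5 neutrophil markers was 674 against 109 at 3 months and 198 against 173 at 1 month, with Ltf at the floor in all arrays. Beside this higher myeloid signal, 4 members (Hspg2, Nid2, Agrn and Col18a1) had genotype differences of 0.19 to 0.22 at 3 months by their brightest probe sets. The other 4 had -0.1 to 0.02, a split that depended on the probe set. The part of the myeloid signal in these differences was not tested. The other markers were few: the tendon and cartilage sum was lowest in mdx at 3 months (657) and highest in mdx at 1 month (1450), the 2 adipocyte genes summed to between 5614 and 7367, and the 3 skin genes to between 132 and 185.

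Partner genes of the basement membrane were taken from lists and set beside the members. Among the minor collagen IV chains, which build the specialised networks of kidney, lung and eye, Col4a5 had signals of 106 and 108 at 3 months (mdx/MMP-2 null and mdx) against 94.6 and 99.6 at 1 month. Both 3-month arrays lay above both 1-month arrays by this probe set, with another in the opposite direction in mdx. The share of all genes with that order was not computed. Col4a4 was dim at 24.7 to 38.9, and Col4a3 and Col4a6 exceeded the floor in 1 array each.

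Laminin chains, the other network of the membrane, lay on the same side as the members. Of 8 measured chains, 6 were lower at 3 months in mdx/MMP-2 null muscle and 7 in mdx muscle, against 45.7% and 47.7% of all genes. Their medians were -0.47 and -0.56. In each genotype 3 were at least 1.5-fold lower, against 6.7% and 7.27% of all genes. In the additive fit 0 passed, and 5 were lower at an unadjusted p under 0.05, against 7.05% of all genes. Lama2, the muscle fibre laminin chain that is mutated in a congenital dystrophy, had 398 against 684 in mdx/MMP-2 null and 369.5 against 548 in mdx. Lamb1, the beta1 chain, was lower by log2 differences of -0.63 and -0.7, and Lama4, the endothelial alpha4 chain, by -0.7 and -0.63. Lama5, the alpha5 chain, differed less, by -0.19 and -0.48. Among the receptors, 8 of 10 were lower in mdx/MMP-2 null muscle and 9 in mdx muscle, against 45.7% and 47.7% of all genes. Their medians were -0.23 and -0.48. For Ddr1 3 other probe sets had the opposite sign in each genotype, and for Ddr2 1 in mdx/MMP-2 null. Dag1, which encodes dystroglycan, the receptor of laminin, agrin and perlecan, had 1214 against 1993 in mdx/MMP-2 null and 1373 against 1927 in mdx. Itga7, the main laminin-binding integrin alpha chain of muscle fibres, had 590 against 466 in mdx/MMP-2 null and was higher at 3 months there (0.34), while in mdx it had 379 against 525 and was lower (-0.47).

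**Figure D4:**
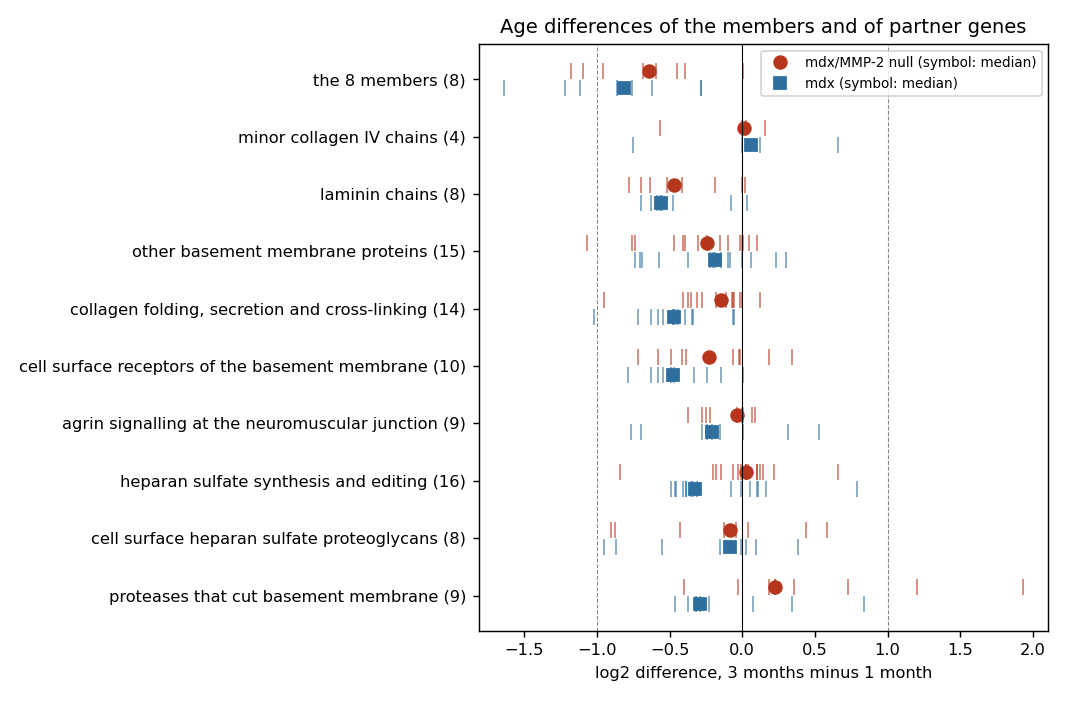
Age differences (log2, 3 months minus 1 month) of the 8 members and of 9 lists of partner genes, with the number of measured genes in brackets. Each tick is a gene, symbols are medians, red circles are mdx/MMP-2 null, blue squares are mdx, broken lines mark 2-fold, and genes at the floor in an array enter at the floor. Of the lists drawn, the medians of the members, at -0.64 and -0.81, lie furthest to the left, followed by those of the laminin chains at -0.47 and -0.56. Cell type markers are not drawn.

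Genes that fold, export and cross-link collagen were lower at 3 months in 12 of 14 cases in mdx/MMP-2 null (median -0.15). In mdx 14 of 14 were lower (median -0.47), against 45.7% and 47.7% of all genes. P4ha3 was at the floor in 3 arrays. Other probe sets had the opposite sign: 1 each of Plod1, Colgalt1 and Mia3 in mdx, and 1 each of Plod2 and Ppib in mdx/MMP-2 null. Pxdn, peroxidasin, which forms the sulfilimine cross-links of collagen IV, had 317 against 613 in mdx/MMP-2 null, the most negative difference of the list there, and 382 against 591 in mdx. P3h1 and Crtap, partners in prolyl 3-hydroxylation of fibrillar collagens, had age differences of -0.01 and -0.11 in mdx/MMP-2 null, against -1.02 and -0.72 in mdx. Serpinh1, the collagen chaperone HSP47, had -0.07 in mdx/MMP-2 null muscle and -0.44 in mdx muscle. Other basement membrane proteins had medians of -0.24 and -0.19, with Fbln2, fibulin-2, at -0.76 and -0.71. Fras1, dim at 21.5 to 49.4, had -1.07 and -0.69, and Sparc, a collagen IV binding protein, -0.39 and -0.74. For Sparc 1 other probe set had the opposite sign in mdx/MMP-2 null.

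Genes on which agrin acts did not share the size of its age difference. Of 9 genes of the agrin pathway at the neuromuscular junction, 5 were lower at 3 months in mdx/MMP-2 null muscle and 6 in mdx muscle. Of all genes 45.7% and 47.7% were lower. The 9 genes had medians of -0.04 and -0.21, and none was 2-fold lower, against 1.22% and 1.55% of all genes. Lrp4, the agrin receptor, had 48.4 against 57.5 in mdx/MMP-2 null and 52.5 against 62.2 in mdx. Musk, the kinase that Lrp4 activates, had 48.8 against 45.9 and 63.7 against 44.1, and was thus higher at 3 months in mdx. Chrng, the fetal acetylcholine receptor subunit, had log2 differences of 0.0 and -0.77. Among 8 measured syndecans and glypicans, the heparan sulfate proteoglycans of the cell surface, 5 were lower in each genotype, against 45.7% and 47.7% of all genes. Their medians were -0.08 in both. Gpc3, glypican-3, had 54.9 against 101 in mdx/MMP-2 null and 54.9 against 100.0 in mdx, and Gpc6 had log2 differences of -0.91 and -0.55.

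Proteases that cut basement membrane were compared because MMP-2 itself is one. Of 9 measured, 6 were higher and 3 lower in mdx/MMP-2 null at 3 months, against 47.6% and 48.1% of all genes. At 1 month 4 were higher and 5 lower, against 46.8% and 48.3%. The deleted Mmp2 counts as lower at both ages, as the genotype labels require. Mmp3, stromelysin-1, which cuts collagen IV, nidogen and perlecan, had 356 against 124 at 3 months and 93.6 against 69.3 at 1 month. Mmp14, the membrane protease that activates MMP-2, had 1158 against 652 and 993 against 846. The order of Mmp9 turned between the ages, with 58.5 against 47.7 at 3 months but 25.5 against 45.3 at 1 month. None passed the additive fit, the deleted Mmp2 included.

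Genes with the profile most like each member's were sought among genes with a signal at or above the 75th percentile and above the floor in all arrays, by the Euclidean distance between log2 profiles centred over the 4 arrays. For Col4a2, Col18a1 ranked 2 of 7738 genes (distance 0.14) after Septin8 (0.12), and for Col18a1, Col4a2 ranked 4. The nearest to Col4a1 were Fkbp7, a prolyl isomerase of the endoplasmic reticulum (0.05), Myod1, a myogenic transcription factor (0.06), and Gpx8 (0.06). By the brightest probe set of each gene, Col4a2 ranked 569 for Col4a1 and Col4a1 ranked 76 for Col4a2. The second Col4a1 probe set was not ranked. Its age differences (mdx/MMP-2 null, then mdx) were -0.925 and -1.26, where the brightest set had -0.68 and -0.76. Those of Col4a2, at -1.1 and -1.12, lay nearer to the second set. Nearest to Col18a1 were Gse1 (0.07) and Mymk, the myoblast fusion protein myomaker (0.1). Agrn stood further from its nearest genes, Ptn, a heparin-binding growth factor (0.22), Cdc42bpb (0.22) and Cthrc1 (0.25). The closest were Lgals3bp for Col15a1 (0.02), Ift27 for Nid1 (0.02), Apoe for Nid2 (0.03) and Snrpg for Hspg2 (0.01). With 4 arrays many genes share a profile, and likeness here is a description.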

How the data were processed

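Groups were taken from the sample labels, with 1 array each. Each deposited value is a linear intensity, the MAS5 signal of a probe set. The submitters' processing notes name Affymetrix Expression Console. The sources used here give no versions or scaling settings, and the columns were not on a common scale. Of 45101 probe sets, 64 controls were left out and 34945 carried 1 gene symbol. Signals were quantile normalized in limma 3.58.1 (R 4.3.3), raised to 17.4 and log2 transformed. The probe set with the highest mean stood for its gene, also in the counts over lists, and other probe sets of a gene can differ in sign. Differences between single arrays were not tested and were counted at 2-fold and 1.5-fold. The additive model used lmFit and eBayes with Benjamini-Hochberg adjustment, and was tested on simulated data. Tables were made in Python 3.11.15 (pandas 2.3.3). Members and lists were chosen with earlier results of these data known. Named were all members, some fixed genes and, from each list, some of the genes with the largest differences (up to 4 for age and 4 for genotype). Not every gene picked by that rule is named in the text. Alternatives were other scalings, floors, probe set rules and variance priors. The number of arrays limits the precision.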

Additional observations from a re-analysis of the deposited data

How the results depend on the processing

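The median difference of the 8 members relative to all genes moved by less than the median residual SD of the additive fit (0.13) under every alternative run for the 4 differences. Counts of members at 2-fold were less stable. For mdx/MMP-2 null muscle, 2 members were 2-fold lower at 3 months, against 1 with median scaling, 0 with no scaling and 1 with the mean of all probe sets. For mdx muscle, 3 members were 2-fold lower, against 2 with median scaling and 2 with the mean of all probe sets. In that mean Agrn enters with its other set at the floor, which shrinks its difference by construction. With 1.5-fold in place of 2-fold, the counts were 5 for mdx/MMP-2 null muscle, and 6 for mdx muscle. In the additive fit, members called for age numbered 0, against 3 with a variance prior that follows signal, 1 (Agrn) with no scaling and 6 at an unadjusted p. The cause was not tested. Of 288 single-gene values under alternatives, 246 moved by less than 0.13, and none past 1.5-fold turned its sign. Other floors, and keeping genes at the floor, could not move them, since each brightest probe set stayed above the floor in all arrays. Probe set rules could not move genes with 1 probe set. With median scaling 15 values moved by 0.13 or more and 17 did not, and with no scaling 16 did and 16 did not. The background of genes that reach the 75th percentile was chosen after seeing the data. No paired analysis was possible because each group has 1 array and the labels give no replicate numbers.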

Other observations

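Genes that make and edit heparan sulfate, the sugar chain of perlecan, agrin and collagen XVIII, did not lie on 1 side. Of 16 measured, 7 were lower at 3 months in mdx/MMP-2 null (median 0.03) and 11 in mdx (median -0.33), against 45.7% and 47.7% of all genes. None differed by 2-fold, where 1.22% and 1.55% of all genes were 2-fold lower. Ext2, a subunit of the enzyme that extends the chain, was higher at 3 months, with 153 against 96.7 in mdx/MMP-2 null and 181.5 against 105 in mdx. Hs6st2, a 6-O-sulfotransferase, had 125 against 224 in mdx/MMP-2 null and 139 against 178 in mdx. Sulf2, which removes 6-O-sulfates outside the cell, was higher in mdx/MMP-2 null than in mdx at both ages, with 448 against 327 at 3 months and 385 against 303 at 1 month, although 1 other Sulf2 probe set had the opposite sign at 3 months.

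Among genes of the fibre membrane, Sdc4, syndecan-4, a proteoglycan of satellite cells and fibres, had 494 against 346 at 3 months and 364 against 349 at 1 month in mdx/MMP-2 null and mdx. Sdc3 had 167 against 119 and 224 against 230.4, with 1 other probe set of opposite sign at 3 months. Tinagl1, a laminin-binding protein of vessel walls, had 129 against 119 at 3 months and 171 against 114 at 1 month.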
